A study of Xenopus laevis with 15 samples.

Results

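The gene models described here have no gene symbol in the deposited table, and their level at 10 nM NRX204647 lay outside the levels of vehicle embryos and of 1 µM embryos alike. RNA was sequenced from Xenopus laevis embryos kept from stage 6 to stage 18 in 0.1% ethanol (vehicle), 10 nM NRX204647 or 1 µM NRX204647, with 5 libraries per group. The members were chosen by these FPKM values themselves. A gene model entered if its symbol cell was empty or a dash and its mean over the 15 libraries was at least 1 FPKM (fragments scaled to transcript length and sequencing depth, a level per length). It was called a dip if all 5 libraries at 10 nM lay below all 10 others, and a peak if all 5 lay above all 10 others. Of 12791 gene models without a symbol at that level, 77 were dips and 64 were peaks, 141 of the 45099 gene models in the table.

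NRX204647 is known here only by its code name, and per the labels the lower dose acts on retinoic acid receptor gamma while the higher dose also activates the alpha and beta receptors. All embryos came from a single clutch. Each library came from 5 embryos, and the labels describe a dish of 25 embryos harvested as 5 aliquots, with no further dishes named. Dose and dish therefore cannot be told apart, and differences between libraries of a group measure the spread between aliquots. In whole embryos, fewer cells of a type and less RNA per cell cannot be told apart either.

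Retinoic acid receptors are nuclear receptors that bind DNA together with retinoid X receptors. Without ligand they recruit corepressors and hold many targets down, and ligand exchanges these for coactivators. In the vertebrate embryo this signal patterns the hindbrain, the somites and the posterior axis, and both too little and too much of it disturb development. In a dose series, the level of a gene can change in steps, at a single dose, or in opposite ways at different doses. Whether any member responds through these receptors was not tested. The members below are the gene models in which the middle of the dose series was the extreme.

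The members cannot be given names or roles, because the table does not pair their identifiers with genes and 0 identifiers were found among the RefSeq genes of the Xenopus_laevis_v10.1 assembly. Of the 58 retinoid pathway genes and known targets listed for the comparison, 4 had a symbol in the table and a mean of at least 1 FPKM, namely nr2f6, tgm2, rdh10 and pdlim1. None of these 4 was a dip or a peak, and at 1 µM against vehicle 2 were higher and 1 was lower by limma. Over all 13192 gene models of at least 1 FPKM, 0.599% were dips, 0.493% were peaks, 28.9% were higher and 16.6% lower. With 4 genes, no difference from these shares can be read. Whole-embryo identity could be checked only thinly, since the neural plate, epidermis, neural crest and muscle lists had 1 gene each above the minimum (sox2, grhl3, sox9 and chrnd) and the notochord, endoderm and blood lists had none. Relative sequencing depth, read from the step that 1 read makes in FPKM, was 0.535 ± 0.259 with vehicle, 0.455 ± 0.143 at 10 nM and 0.839 ± 0.189 at 1 µM (SD, n = 5 each, with the deepest library at 1). Recovered reads in gene models of at least 1 FPKM ran from 2548424 to 10449819 per library. The most abundant gene model took 23.6% to 45.5% of the summed FPKM with vehicle, 17.6% to 32.9% at 10 nM and 14.5% to 26.2% at 1 µM. The highest share was that of vehicle replicate 3, and the part of depth and of this share in the patterns below was not tested beyond the other scalings.

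It was uncommon for the middle dose to be the extreme. Among gene models without a symbol, 10 nM lay below all other libraries in 0.602% and above them in 0.5%. Vehicle lay below both doses in 6.07% (777 gene models) and above both in 3.8% (486). Libraries at 1 µM lay below all others in 4.31% (551) and above them in 9.16% (1172). These shares chose the members and are given as a description. Over all 13192 gene models of at least 1 FPKM, 0.599% were dips and 0.493% were peaks.

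**Figure D1:**
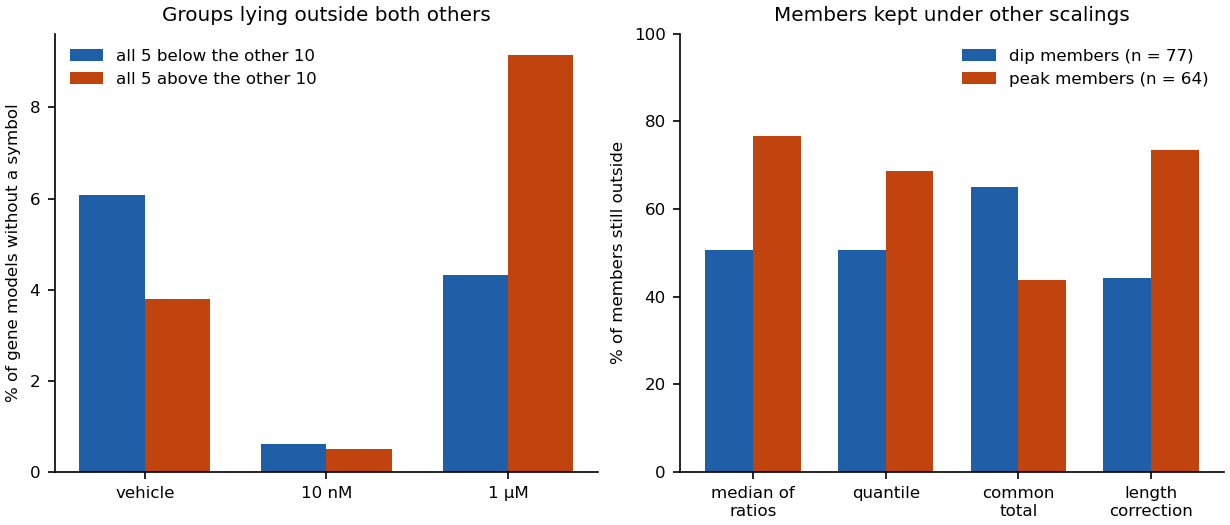
Left, the percentage of the 12791 gene models without a symbol in which all 5 libraries of a group lay below or above the other 10, by group; right, the percentage of dip and peak members that still met the rule after each of 4 other scalings. The 10 nM group was the extreme in 0.602% (below) and 0.5% (above), against 3.8% to 9.16% for the other groups. Members that could not be corrected for length count as not meeting the rule under that correction.

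The 77 dips were mostly moderate decreases shared by all 10 nM libraries. Their summed level was 458 to 521 FPKM in the vehicle libraries, 317 to 364 FPKM at 10 nM and 473 to 515 FPKM at 1 µM. The 10 nM libraries lay apart from the others, as the rule requires, while vehicle and 1 µM overlapped. The mean at 10 nM was 34.5% to 85.0% of the vehicle mean over the 77 dips (median 69.4%) and 8.48% to 89.5% of the 1 µM mean (median 66.9%). In 61 of the 77 the mean at 10 nM was at most 80% of both other means, and in 20 it was at most 67% of both. The gap, the distance on the log2(FPKM + 1) scale between the nearest 10 nM value and the nearest other value, had a median of 0.05 and reached 0.35. It was at least 0.1 in 21 dips.

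The dip with the widest gap was Xelaev18043421m.g. It had 3.80, 3.45, 3.85, 2.68 and 2.92 FPKM with vehicle, 1.72, 0.462, 1.21, 1.20 and 1.17 FPKM at 10 nM, and 5.12, 2.47, 2.99, 3.65 and 3.66 FPKM at 1 µM. The highest 10 nM library stood below the lowest vehicle library and the lowest 1 µM library, and vehicle and 1 µM overlapped. Its mean at 10 nM was 34.5% of the vehicle mean and 32.2% of the 1 µM mean, log2 differences of -1.03 and -1.09. Each 10 nM library held 3 to 22 recovered reads of it, against 27 to 127 in the others. These reads are not scaled to depth, which was lowest on average at 10 nM.

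The next widest gap was that of Xelaev18006895m.g, with means of 1.97 ± 0.244 FPKM with vehicle, 0.959 ± 0.203 FPKM at 10 nM and 2.65 ± 1.11 FPKM at 1 µM (SD, n = 5 each). Its 10 nM libraries ran from 0.763 to 1.24 FPKM on 8 to 23 recovered reads. The vehicle libraries ran from 1.69 to 2.23 FPKM and those at 1 µM from 1.85 to 4.58 FPKM, and 1 µM replicate 1 stood far above the other libraries. Better supported was the dip with the third widest gap, named only by its rank, whose 10 nM libraries had 5.71, 5.81, 5.26, 4.57 and 5.82 FPKM. Its vehicle libraries had 7.11 to 9.29 FPKM and its 1 µM libraries 7.70 to 8.65 FPKM, and its mean at 10 nM was 67.2% of the vehicle mean.

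The most abundant dip was a gene model of 33.6 FPKM on average. Its libraries had 35.2 to 42.6 FPKM with vehicle, 25.6 to 29.7 FPKM at 10 nM and 31.9 to 33.3 FPKM at 1 µM. The second most abundant had 41.1 to 49.2 FPKM with vehicle, 22.8 to 25.6 FPKM at 10 nM and 25.7 to 30.4 FPKM at 1 µM. In both, the level at 1 µM lay nearer to that at 10 nM than to vehicle, so that the dip is narrow on that side. Of the other 4 scalings, the first kept its place outside the other libraries in 1 and the second in 0.

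The 64 peaks were higher at 10 nM by about as much as the dips were lower. Their summed level was 595 to 631 FPKM with vehicle, 829 to 935 FPKM at 10 nM and 530 to 646 FPKM at 1 µM. All 10 nM libraries stood above all others in the sum, as the rule requires, while vehicle and 1 µM overlapped. The mean at 10 nM was 119% to 349% of the vehicle mean over the 64 peaks (median 145%) and at least 112% of the 1 µM mean (median 152%). In 19 of the 64 it was at least 150% of both other means. The median gap was 0.05, the widest was 0.36, and 20 peaks had a gap of at least 0.1.

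The widest gap among the peaks was that of Xelaev18007472m.g. It had 5.76, 6.77, 7.29, 7.41 and 6.27 FPKM with vehicle, 12.1, 11.5, 13.0, 11.3 and 9.81 FPKM at 10 nM, and 3.08, 4.41, 3.77, 3.10 and 3.02 FPKM at 1 µM. None of the groups overlapped, and the order was 1 µM lowest, vehicle in the middle and 10 nM highest. Each 10 nM library held 99 to 210 recovered reads of it.

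The next was Xelaev18011472m.g, with 1.67, 1.91, 2.13, 2.56 and 2.07 FPKM with vehicle, 3.63, 3.83, 3.51, 3.71 and 4.0 FPKM at 10 nM, and 2.28, 2.71, 2.48, 0.865 and 1.82 FPKM at 1 µM. Here vehicle and 1 µM overlapped, and 10 nM stood above both at 181% of the vehicle mean and 184% of the 1 µM mean. Its recovered reads were few, at 15 to 39 per 10 nM library and 7 to 41 in the others.

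The most abundant peak averaged 128 FPKM. Its libraries had 96.5 to 119 FPKM with vehicle, 129 to 178 FPKM at 10 nM and 95.4 to 127 FPKM at 1 µM, so that the lowest 10 nM library was close to the highest one at 1 µM. The third most abundant peak had 26.8 to 31.1 FPKM with vehicle, 36.4 to 43.7 FPKM at 10 nM and 27.3 to 35.5 FPKM at 1 µM. It met the rule under all 4 other scalings, and the most abundant peak under 2 of them.

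**Figure D2:**
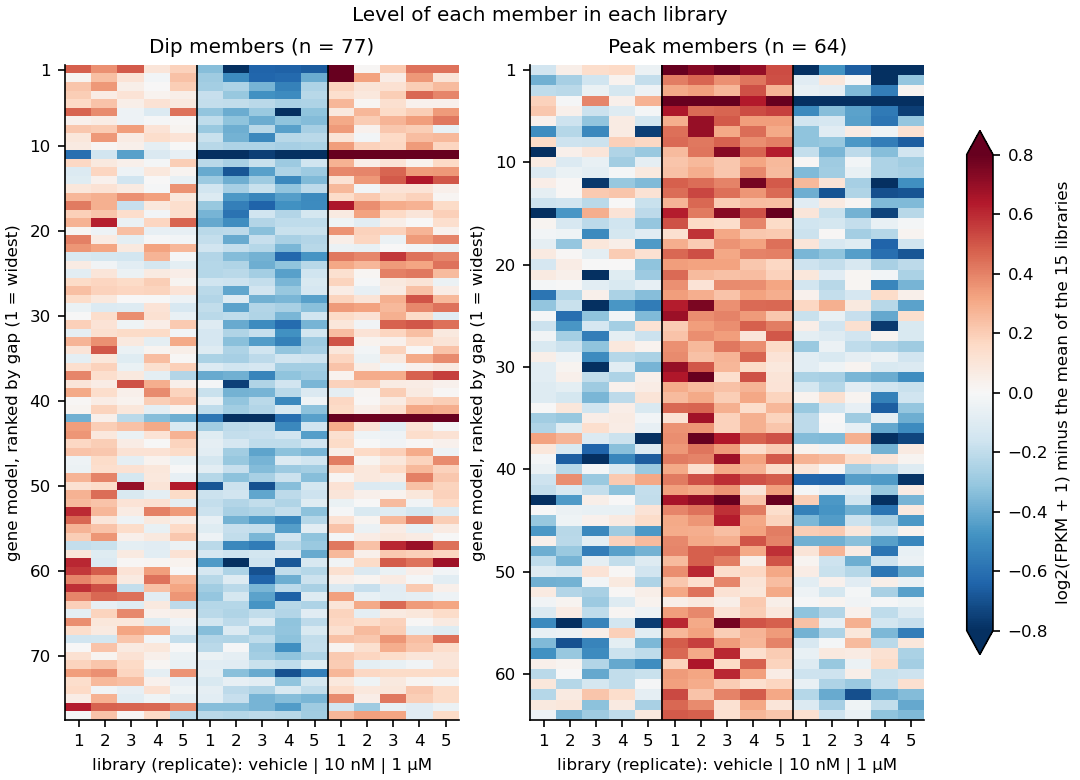
Level of each of the 77 dip members (left) and 64 peak members (right) in each library, as log2(FPKM + 1) minus the mean of the 15 libraries; rows are ranked by gap, columns are replicates 1 to 5 of vehicle, 10 nM and 1 µM, and colours beyond ±0.8 are capped. The 10 nM block stands out by the rule, and single rows differ also between vehicle and 1 µM.

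The difference of 1 µM from vehicle was not what the rule asked for, and it is the only one given with a test. All vehicle and 1 µM values and their spread nevertheless entered the rule, so the members' p-values are conditional on that choice, and their shares of calls are a description that is not read against the share over all gene models. By limma with Benjamini-Hochberg adjustment over all 13192 gene models, 45.6% changed at 1 µM, 28.9% being higher and 16.6% lower. Among the 77 dips, 14 were higher (18.2%) and 5 lower (6.49%), and the other 58 did not pass. Among the 64 peaks, 7 were higher (10.9%) and 13 lower (20.3%), and the other 44 did not pass. The median log2 difference at 1 µM against vehicle was 0.03 over the dips and -0.04 over the peaks, beside 0.09 over all gene models without a symbol.

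These counts moved with the scaling. Among dips, 14 higher and 5 lower as deposited became 11 and 12 with median-of-ratios scaling, 9 and 19 with quantile normalization, 5 and 27 when all libraries were given 1 common total that left out the most abundant gene model, and 13 and 10 after a length correction. Among peaks, 7 higher and 13 lower became 5 and 19, 5 and 26, 3 and 27, and 3 and 18 in the same order. Limma's voom on recovered reads gave 11 and 11 dips and 4 and 19 peaks. Over all gene models the calls moved the same way. The share called higher was 24.5% on median-of-ratios values, 22.1% on quantile values, 19.5% on the common total, 23.1% after the length correction and 26.0% with voom. The share called lower was 23.0%, 25.9%, 30.5%, 23.4% and 24.6% in that order, beside 15.6%, 24.7%, 35.1%, 13.2% and 14.5% of the dips and 29.7%, 40.6%, 42.2%, 29.0% and 30.6% of the peaks. Over all gene models the median difference of 1 µM from vehicle was 0.09 as deposited, 0.01 with median-of-ratios, -0.03 with quantile, -0.09 with common-total scaling and -0.02 after the length correction.

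Of the dips that rose at 1 µM, Xelaev18044178m.g rose most. It had 1.38, 2.25, 1.68, 2.34 and 2.46 FPKM with vehicle, 0.781, 0.147, 1.15, 1.06 and 0.471 FPKM at 10 nM, and 10.9, 7.83, 8.33, 8.91 and 6.70 FPKM at 1 µM. The 3 groups did not overlap, and the lowest 10 nM library held 2 recovered reads. At 1 µM it was higher than vehicle by 1.65 ± 0.17 on the log2(FPKM + 1) scale (SE, limma adjusted p = 1.60e-06). Its level thus lay below vehicle at the lower dose and above it at the higher dose. The next was Xelaev18024402m.g, with 1.86 to 2.86 FPKM with vehicle, 1.09 to 1.77 FPKM at 10 nM and 5.47 to 6.75 FPKM at 1 µM. It rose at 1 µM by 1.18 ± 0.10 (SE, limma adjusted p = 3.34e-07), its highest 10 nM library was near its lowest vehicle library, and it met the rule under 1 of the 4 other scalings.

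The largest decreases at 1 µM were both among the peaks. Xelaev18046082m.g had 2.10, 1.71, 2.58, 1.80 and 2.31 FPKM with vehicle, 3.98, 4.13, 7.02, 3.22 and 6.29 FPKM at 10 nM, and 0.108, 0.107, 0.134, 0.399 and 0 FPKM at 1 µM. All 5 libraries at 1 µM lay far below the others, on 0 to 4 recovered reads each. Nearly all its recovered values were even, so what counts as 1 read here may be only part of one, and its support lower. It fell by 1.43 ± 0.16 at 1 µM on the log2(FPKM + 1) scale (SE, limma adjusted p = 3.87e-06), a scale that understates changes of low genes. Xelaev18007472m.g, the peak with the widest gap, fell by 0.79 ± 0.10 (SE, limma adjusted p = 1.81e-05). All 4 of these calls held in every alternative in which the gene model was tested. The 4 were picked as the largest changes among members called and without overlap, so this is a description.

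Members that did not pass at 1 µM cannot be said to equal vehicle. For Xelaev18043421m.g the difference of 1 µM from vehicle was 0.06 with a 95% interval from -0.29 to 0.41 (limma adjusted p = 0.794), and for Xelaev18011472m.g it was -0.05 with an interval from -0.37 to 0.27 (limma adjusted p = 0.808). For Xelaev18006895m.g it was 0.26, from -0.06 to 0.58 (limma adjusted p = 0.178). Over the 58 dips that did not pass, the differences ran from -0.30 to 0.27, and over the 44 peaks from -0.34 to 0.33.

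**Figure D3:**
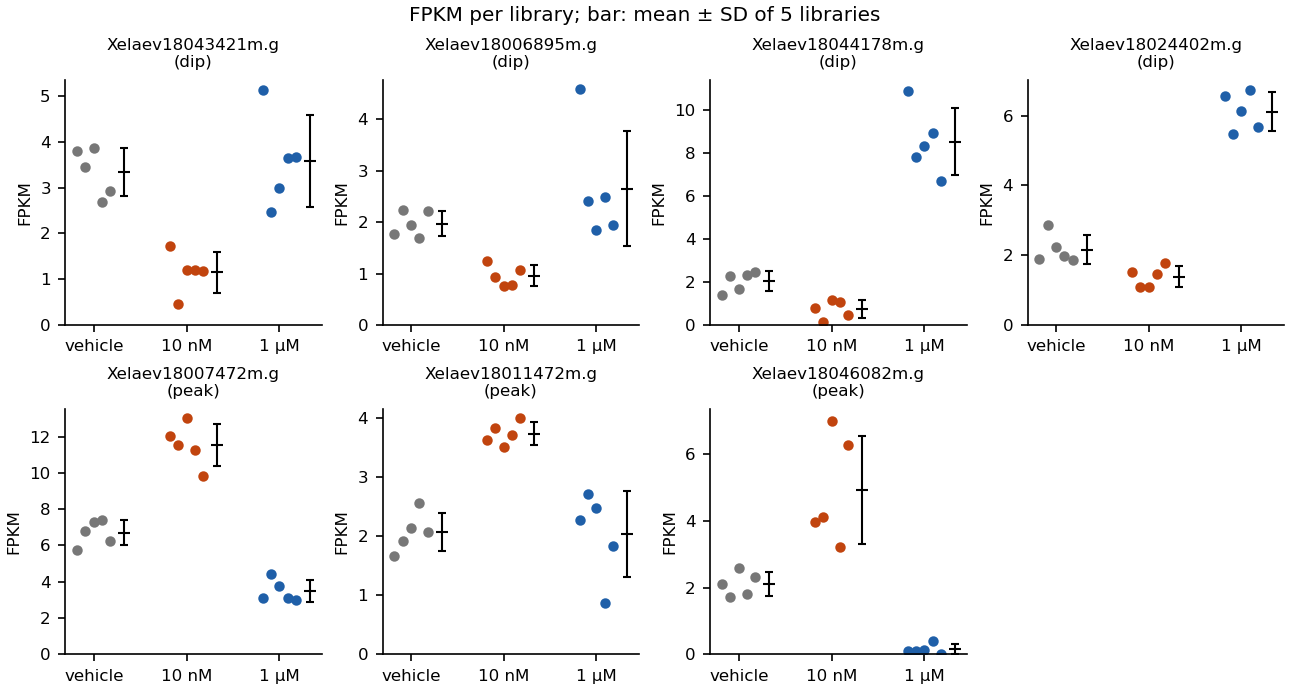
FPKM in each library for the members named by identifier, with the mean ± SD of 5 libraries beside the points of each group. The 4 dips are lowest at 10 nM and the 3 peaks highest; Xelaev18044178m.g and Xelaev18024402m.g lie above vehicle at 1 µM, and Xelaev18007472m.g and Xelaev18046082m.g below it.

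**Figure D4:**
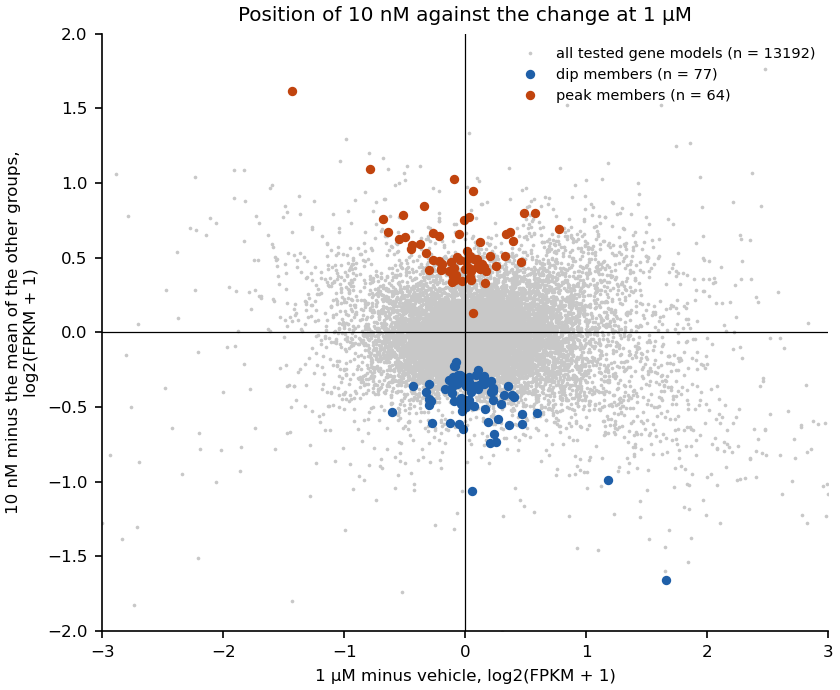
Each point is a gene model of at least 1 FPKM: across, the difference of 1 µM from vehicle; up, the difference of 10 nM from the mean of the other groups, both on the log2(FPKM + 1) scale, with 31 gene models outside the plotted range. Dips lie below and peaks above the centre of the cloud by the rule, and across they run from -0.61 to 1.65 (dips) and from -1.43 to 0.78 (peaks).

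Membership itself depended on the scaling. Of the 77 dips, 39 still met the rule with median-of-ratios scaling, 39 with quantile values, 50 with the common total and 34 once corrected for length. Of the 64 peaks, 49, 44, 28 and 47 did. The length correction could be made only for the 76 dips and 62 peaks with a recovered unit. The others were counted as not meeting the rule under it. Under all 4 scalings 31 dips (40.3%) and 26 peaks (40.6%) remained, and 25 dips and 10 peaks remained under none. The 4 members named for the widest gaps were among those that remained under all 4. They were picked by the gap in the values that the rule used. A wide gap is harder to close by rescaling, so this is a description. The 31 dips had a median gap of 0.11, against 0.03 for the 25 kept under none. The 26 peaks had a median gap of 0.08, against 0.06 for the 10 kept under none and 0.05 over all 64 peaks. Among peaks, then, those kept under none did not have the narrowest gaps. None of the 5 dips lower at 1 µM was among the 31, while 6 of the 14 higher ones were. All 7 peaks higher at 1 µM were among the 26, and 4 of the 13 lower ones. All 4 scalings moved the median difference of 1 µM from vehicle down, which bears on these counts. The median gap was 0.02 in the 5 lower dips and 0.08 in the 14 higher ones. It was 0.10 in the 13 lower peaks and 0.03 in the 7 higher ones. The part of the shift and of the gap in these counts was not tested.

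Summed levels of the members kept under all 4 scalings were low or high at 10 nM by the rule. The 31 dips summed to 153 to 176 FPKM with vehicle, 105 to 128 FPKM at 10 nM and 174 to 192 FPKM at 1 µM. The 26 peaks summed to 183 to 234 FPKM with vehicle, 319 to 354 FPKM at 10 nM and 200 to 247 FPKM at 1 µM. Vehicle and 1 µM overlapped in the peaks, and in the dips only narrowly, with means of 185 FPKM at 1 µM and 163 FPKM with vehicle. Over all 77 dips the means were 499 FPKM at 1 µM and 487 FPKM with vehicle.

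Relative length, recovered from what a read is worth in a gene model, differed between dips and peaks. The rule does not name length but is not independent of it. At a given FPKM a longer gene model holds more reads, and any part of this in the dips or the peaks was not tested. With the median of all gene models of at least 1 FPKM set to 1, the median was 2.31 over 76 dips and 0.824 over 62 peaks, the others having no recovered unit. In 4 equal bins of relative length from short to long, 4, 15, 19 and 38 gene models were dips, and 16, 19, 12 and 15 were peaks. For 14 dips and 4 peaks nearly all recovered values shared a common factor. Their relative length may therefore be overstated, and their bin too long. How often this holds over all gene models is not given here. Over all gene models without a symbol, the median difference of 10 nM from the mean of the other groups was 0.04 in the shortest bin, -0.01 and -0.06 in the middle ones and -0.07 in the longest. The part of length in the dips was not tested. After the length correction 34 of the dips still met the rule, among 63 gene models that met it. Median-of-ratios, quantile and common-total scaling take no account of length. They kept 39, 39 and 50 of the dips, among 73, 78 and 161 gene models that met it. The length correction also rescales each library as a whole, so these counts do not separate length from scaling.

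**Figure D5:**
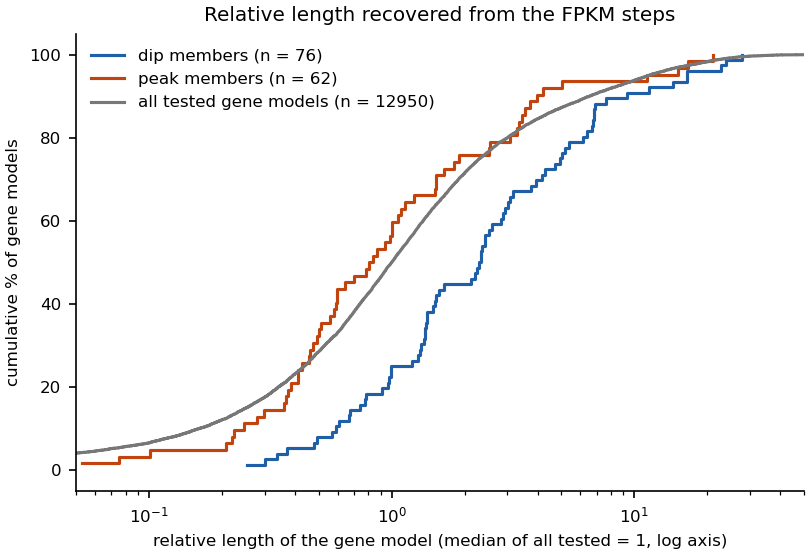
Cumulative percentage of 76 dip members, 62 peak members and all gene models of at least 1 FPKM with a recovered unit against relative length on a log axis. The dips lie to the right, with a median of 2.31, and the peaks close to all gene models, with a median of 0.824.

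As a description, read support and spread also differed in their medians from those of all gene models without a symbol. Level did so mainly in the peaks. Median levels were 2.94 FPKM for dips and 6.00 FPKM for peaks, beside 2.85 FPKM for all gene models without a symbol, and 13 dips and 23 peaks averaged at least 10 FPKM. The median 10 nM library held 198 recovered reads for the median dip and 249.5 for the median peak, beside 96 over all. Under 10 reads in a 10 nM library were found for 5 dips and 3 peaks. For 14 dips and 4 peaks nearly all recovered values shared a common factor, so that their true read support may be lower. How often this holds over all gene models without a symbol is not given here. The medians of reads may therefore not be like for like. The residual SD within groups had a median of 0.13 for dips and 0.16 for peaks, beside 0.21 over all. The spread entered the rule, since non-overlap favours small spread.

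Single libraries set the edge of the members unevenly. Among dips, the 10 nM library nearest to the others was replicate 1 in 33 and replicate 5 in 22, and a vehicle library was the nearest from the other side in 54, most often replicate 3 (17). Among peaks, the nearest 10 nM library was replicate 3 in 17, replicate 5 in 17 and replicate 4 in 16. Without 10 nM replicate 1 the rule was met by 189 dips, and without vehicle replicate 3 by 134. Without 10 nM replicate 4 it was met by 119 peaks. A rule over fewer libraries is easier to meet, and the part of each library in the count was not tested.

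The rule cuts through a continuum. The narrowest dip had 10.768 FPKM in its highest 10 nM library and 10.770 FPKM in the lowest other one. Just outside lay a gene model with 2.939 FPKM in its highest 10 nM library against 2.932 FPKM in the lowest other one. Another was at 0 in all 10 nM libraries and tied with a library of another group at 0. The narrowest peak had 6.356 FPKM in its lowest 10 nM library and 6.349 FPKM in the highest other one, and the nearest outside had 1.379 against 1.381 FPKM. The least abundant members averaged 1.04 FPKM among the dips and 1.05 FPKM among the peaks, and gene models with the same non-overlap just under the minimum averaged 0.926 and 0.993 FPKM.

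Of the 401 gene models with any symbol and at least 1 FPKM, 2 were dips (0.499%) and 1 was a peak (0.249%). The dip with the wider gap was prkci, an atypical protein kinase C of apical cell polarity. It had 7.95 to 11.3 FPKM with vehicle, 4.81 to 6.58 FPKM at 10 nM and 8.78 to 11.7 FPKM at 1 µM, with a gap of 0.24, beside 0.35 for the widest dip without a symbol. The other was ap1g1-like, whose symbol points to a subunit of a clathrin adaptor complex, with 3.63 to 5.15, 3.19 to 3.54 and 3.56 to 4.65 FPKM in the same order and a gap of 0.01. The peak was grhl3, a transcription factor of the epidermis, with 17.3 to 20.8 FPKM with vehicle, 22.4 to 24.9 FPKM at 10 nM and 13.3 to 16.3 FPKM at 1 µM. Like Xelaev18007472m.g it was highest at 10 nM and lowest at 1 µM.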

How the data were processed

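The values deposited by the authors were FPKM, in 1 table of 45099 gene models by 15 libraries, from single 50 nt reads without strand, per the labels' protocols. RNA was amplified with the NuGEN Ovation V2 system before sequencing, per the labels. The submitters' processing notes list TopHat, Bowtie and Cufflinks. Tool versions, build and gene annotation were not given in the sources used here. Reads of overlapping genes, and of the near-identical gene copies of this species, could therefore be split or shared between gene models.

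FPKM is not a count, so limma 3.58.1 (R 4.3.3) was run with a mean-variance trend on log2(FPKM + 1), with all 3 groups in 1 fit, for the 13192 gene models averaging 1 FPKM or more. Tests were two-sided at an adjusted p under 0.05, and the fit was tested on simulated data. The simulated errors were independent and had the spread of the fit itself. They therefore could not show how the fit handles aliquots of a dish or differences in depth. Only 1 µM against vehicle was tested in the members. Whole reads and relative lengths were worked out from the smallest FPKM step of each gene model (98.2% of the 13192 gene models within 0.03 reads). No 2 libraries of a group were identical, and their recovered reads differed beyond sampling noise in all 30 pairs (lowest chi-square over degrees of freedom 5.70).

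Members and lists were chosen with earlier results of these data known. Identifiers were printed for the 2 dips and 2 peaks with the widest gap, and for the 2 largest increases and 2 largest decreases at 1 µM against vehicle among members called and without overlap. Members given by rank, level or edge were picked out after their values were seen. Alternatives were pseudocounts, filters, scalings, fits, a replicate block, a margin and left-out libraries. Python 3.11.15, numpy 2.4.6, pandas 2.3.3 and matplotlib 3.10.9 were used.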

Additional observations from a re-analysis of the deposited data

Results flagged for a closer look

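In 1 of the 27 sets of 5 libraries examined, a library stood far from the others of its group. For the dip Xelaev18006895m.g, 1 µM replicate 1 had 4.58 FPKM, against 1.85, 1.94, 2.42 and 2.48 FPKM in the other 1 µM libraries. Chance flags about 1 in 20 such sets. The difference of its 10 nM mean from the other groups ran from -0.78 to -0.65 on the log2(FPKM + 1) scale when each library was left out. By the rule every 10 nM value lies below every other value, so its sign could not change. No cause was tested.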

How the results depend on the processing

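As deposited, 77 dips and 64 peaks met the rule. The common total gave 161 dips, and the length correction 99 peaks. A minimum of 5 FPKM gave 28 dips and 35 peaks, and a margin of 0.2 between the nearest values 5 and 6. Dropping the shallow libraries (relative depth below 0.4) gave 356 and 261. That left out vehicle replicates 1, 2 and 3 and 10 nM replicates 2 and 3, and no library at 1 µM. Leaving out each library gave 81 to 189 dips and 65 to 119 peaks. With the filter on the mean unchanged, fewer libraries can only add members, so the direction of these rises was fixed. The causes of the shifts with scaling were not tested. At 1 µM against vehicle, dips called higher were 14, and 9 after quantile normalization, 5 on the common total and 5 at a minimum of 5 FPKM, which kept 28 dips. At that minimum 37.3% of all gene models were called higher. Dips called lower were 5, and 12 with median-of-ratios, 10 with length-corrected, 19 with quantile and 27 with common-total values, 11 with voom and 3 at an adjusted p under 0.01, where lower calls over all gene models were 2195 as deposited and 3037, 3033, 3413, 4026, 3184 and 1444 in that order. Peaks called higher were 7, and 3 with the common total, 3 with the length correction, 4 with voom, 2 without the shallow libraries and 3 at an adjusted p under 0.01. In the last 2 settings 22.8% and 20.9% of all gene models were called higher, beside 28.9% as deposited. Peaks called lower were 13, and 26 with quantile normalization and 27 with the common total. Leaving out each library gave 12 to 15 and 3 to 7 dips, and 5 to 7 and 11 to 15 peaks, higher and lower. The 3 lower dips were without vehicle replicate 1 or without 1 µM replicate 5. Over all gene models, 25.7% to 29.1% were then called higher and 14.3% to 18.0% lower. The log2 fold changes of the named members kept their sign and call, from 0.94 to 2.03 for Xelaev18044178m.g, 0.64 to 1.47 for Xelaev18024402m.g, -4.18 to -0.46 for Xelaev18046082m.g and -1.06 to -0.47 for Xelaev18007472m.g, with limma adjusted p up to 0.00164. The ends of these ranges came from other pseudocounts or from voom, and so lie on unlike scales. With each library left out on the log2(FPKM + 1) scale, the increases ran from 1.57 to 1.73 and from 1.14 to 1.25 in that order. The decreases ran from -1.51 to -1.38 and from -0.86 to -0.75. These members were picked among those called and without overlap of 1 µM and vehicle. Leaving out a library therefore could not change their sign. With the replicate number as a block, 12 dips were higher and 7 lower, and 7 peaks higher and 12 lower. Of all gene models, 28.9% were higher and 16.3% lower in that fit. The numbers do not pair the libraries, since same-numbered libraries had residual correlations from -0.11 to 0.11 and 3 of 15 correlated best with their own number. Depth limits the low members, as 5 dips and 3 peaks had under 10 recovered reads in a 10 nM library.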

Other observations

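Among the 141 members, 4 pairs had identifiers whose numbers differ by at most 3, and in each pair both members showed the same pattern (3 pairs of peaks and 1 of dips). How often such pairs occur over all gene models was not counted. Whether the numbering follows position in the genome is not given in the sources used here, and reads shared between such gene models were not examined. In the pair of peaks with the highest levels, means were 29.5, 37.9 and 24.5 FPKM with vehicle, at 10 nM and at 1 µM in the first gene model, and 19.0, 28.0 and 20.1 FPKM in the second. In another pair both gene models were lower at 1 µM than with vehicle, with means of 10.8, 14.3 and 7.34 FPKM in the first and 17.7, 22.8 and 11.8 FPKM in the second, in the same order. In the pair of dips the means were 1.91, 0.729 and 1.37 FPKM in the first and 2.17, 1.48 and 2.11 FPKM in the second.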
